A study of Phaseolus vulgaris with 18 samples.

Results

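The fatty acid genes of the common bean described here are the 46 of 27420 annotated genes whose deposited description names fatty acids, acyl carrier protein, acyl-ACP enzymes, acetyl-CoA carboxylase or diacylglycerol acyltransferase. Ketoacyl-CoA synthases and hydroxylases were left out by the same rule. By role they are 2 carboxylase subunits, 8 acyl carrier proteins, 4 condensing enzymes, 6 thioesterases, 14 desaturases, 5 acyltransferases, 4 reductases and 3 amide hydrolases. The rule used descriptions and no measured value.

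RNA was sequenced from grain and from pod of Phaseolus vulgaris line 4004 at 10, 15 and 20 DAF, taken to mean days after flowering. There were 3 libraries for each of the 6 combinations of tissue and stage, and the labels name no other treatment or genotype. Whether replicate libraries represent different plants is not labelled, so the p-values given below reflect the spread of these samples alone, part of which may be technical. Levels are the authors' deposited TPM (transcripts counted per transcript length and scaled within each library), for which read depth is unknown.

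In plants, fatty acids are made in the plastid, where acetyl-CoA carboxylase supplies malonyl units and ketoacyl-ACP synthases extend a chain carried on acyl carrier protein. Thioesterases release the chain, which is then desaturated in the plastid or in the endoplasmic reticulum and built into membrane lipids or storage oil. Bean grain stores mainly starch and protein and comparatively little oil.

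The 12 genes of the grain storage list, among them oleosins and cupins, summed to between 458 and 3152 TPM in grain at 10 DAF and to at least 86054 TPM at 15 and 20 DAF, against 34 to 119 TPM in the pods. The tissue labels and these markers pointed the same way in all 18 libraries. The 50 most abundant genes took 15.4 to 17.2% of all TPM in 10 DAF grain, 49.9 to 60.2% in 15 DAF grain, 58.4 to 72.8% in 20 DAF grain and 17.8 to 26.1% in the pods. Because TPM is a share of a whole, this lowers the deposited value of the other genes in late grain, so the grain counts and most grain differences are also given after median-ratio scaling, which sets the typical gene equal between libraries. Between grain at 10 and at 20 DAF the median log2 difference over all tested genes was -1.08 as deposited and -0.10 after scaling. The pod library 3 at 15 DAF summed to 436072 TPM, and the others to between 823001 and 999633 TPM.

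Of the 46 genes, 38 reached at least 1 TPM in at least 3 libraries and were tested. The 8 that did not are 3 FATB copies, 1 ACP4 copy, 1 diacylglycerol acyltransferase family gene and 3 FAR1 genes. The highest value of any of these 8 in any library was 1.24 TPM, in FATB copy Phvul.007G034100, and FAR1 Phvul.011G092300 was listed at 0 in all 18. Differences are log2(TPM + 1) differences from 1 limma fit over all 19861 tested genes, and genes count as called with a log2 difference of 1 or more in either direction and a Benjamini-Hochberg adjusted p below 0.05. Folds of lowly expressed genes are understated on this scale.

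**Figure D1:**
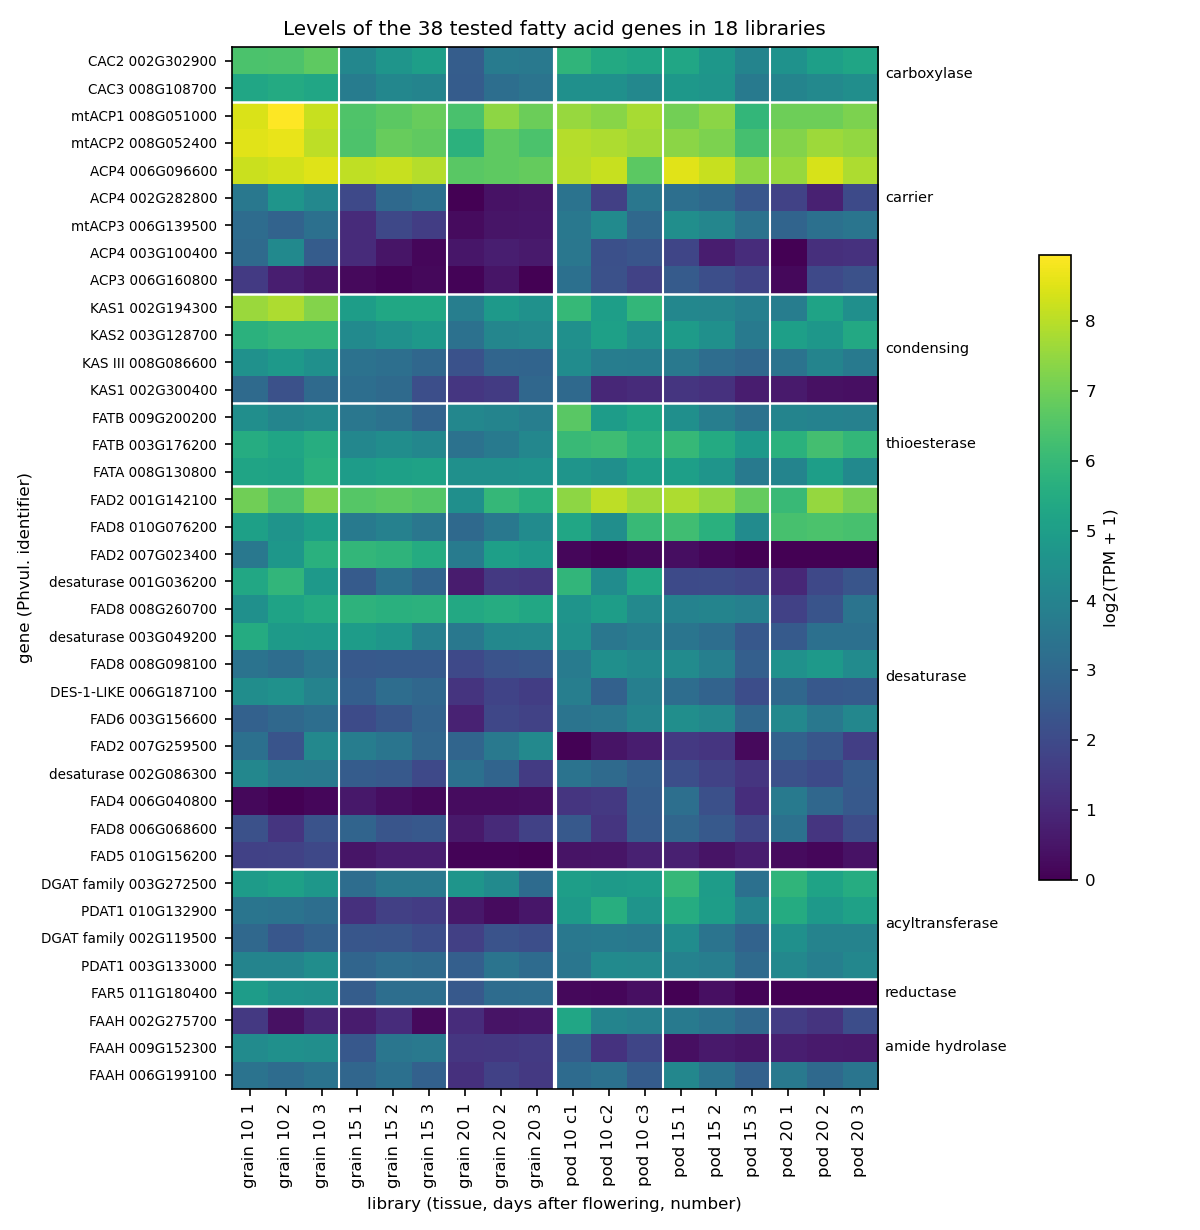
Level of each of the 38 tested genes (rows, grouped by role) in each of the 18 libraries (columns, by tissue and days after flowering), as log2(TPM + 1). CAC2, CAC3, KAS1, KAS2 and KAS III are brightest in grain at 10 DAF, and 1 FAD2 copy and FAR5 are bright in grain and dark in pod.

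Young grain held the fatty acid genes at their highest summed level. The 46 genes together summed to 2056 ± 137 TPM (SD, n = 3) in grain at 10 DAF, 981 ± 56.5 TPM at 15 DAF, then 626 ± 137 TPM at 20 DAF. In pod the sums were 1469 ± 149, 1125 ± 430 and 1198 ± 162 TPM. At 15 DAF pod library 3, with its low total of 436072 TPM, summed to 659 TPM, against 1505 and 1213 TPM in libraries 1 and 2. After median-ratio scaling the grain sums were 1581 ± 173, 1385 ± 26.4 and 1167 ± 82.8, and the pod sums 1162 ± 149, 960 ± 12.0 and 841 ± 132. In bulk tissue, fewer cells of a type and less RNA per cell cannot be told apart. Sums over 3 libraries against 3 were not tested, since an exact two-sided permutation test of that size cannot go below p = 0.1.

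From 10 to 20 DAF in grain, 26 of the 38 tested genes fell and 0 rose in deposited TPM, where 52.9% of all tested genes fell and 2.67% rose. At an unadjusted p under 0.05, 28 of the 38 were lower and 0 higher. All tested genes were not counted at that cut-off, so this count has no share of all genes beside it. After median-ratio scaling 11 were lower and 3 higher, against 16.8% lower and 8.57% higher of all tested genes, and those 11 were all among the 26. The median difference of the 38 genes was -1.59 as deposited, beside -1.08 for all genes, and -0.38 after scaling, beside -0.10. The 11 genes lower under both scalings were CAC2, CAC3, KAS1, 2 ACP4 copies, mtACP3, FAD5, DES-1-LIKE, a gene described as fatty acid/sphingolipid desaturase, 1 PDAT1 copy and 1 FAAH copy.

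Acetyl-CoA carboxylase makes malonyl-CoA, the carbon donor of chain growth, and CAC2 (Phvul.002G302900) encodes its biotin carboxylase subunit. CAC2 was listed at 84.3, 85.3 and 103 TPM in the grain libraries at 10 DAF, 16.4, 24.4 and 30.9 TPM at 15 DAF, then 5.24, 12.0 and 11.2 TPM at 20 DAF. Every 10 DAF grain library lay above every later one, and the 15 and 20 DAF libraries did not overlap either. The log2 difference between 20 and 10 DAF was -3.20 (SE 0.35, adjusted p = 9.42e-07), and -1.98 (SE 0.24, adjusted p = 1.31e-05) after scaling. Most of it lay between 10 and 15 DAF, at -1.92 (SE 0.35, adjusted p = 0.000400), and -1.06 (SE 0.24, adjusted p = 0.00478) after scaling. CAC3 (Phvul.008G108700), the alpha subunit of its carboxyltransferase, went from 39.6 ± 2.87 to 14.9 ± 2.15 and 7.77 ± 2.48 TPM. Its log2 difference between 20 and 10 DAF was -2.25 (SE 0.30, adjusted p = 7.69e-06), and -1.05 (SE 0.16, adjusted p = 8.89e-05) after scaling.

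Condensing enzymes join malonyl units to the growing chain. KAS1 (Phvul.002G194300), which carries out most rounds of elongation, was listed at 192, 229 and 154 TPM in grain at 10 DAF, 30.2, 39.5 and 38.8 TPM at 15 DAF, then 13.3, 26.6 and 22.1 TPM at 20 DAF. The 10 DAF values stood clear above all later grain values and above all pod values. The log2 difference between 20 and 10 DAF was -3.19 (SE 0.35, adjusted p = 9.78e-07), and -1.92 (SE 0.35, adjusted p = 0.000508) after scaling. KAS III (Phvul.008G086600), which starts the chain, and KAS2 (Phvul.003G128700), which makes the last extension in the plastid, fell by smaller amounts. Their log2 differences were -1.94 (SE 0.29, adjusted p = 1.86e-05) for KAS III and -1.95 (SE 0.33, adjusted p = 7.67e-05) for KAS2, and after scaling -0.77 and -0.70, short of the size threshold. A second KAS I gene (Phvul.002G300400) was low, at 6.21 ± 2.18, 6.38 ± 2.62 and 3.51 ± 2.96 TPM in grain, and was not called.

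**Figure D2:**
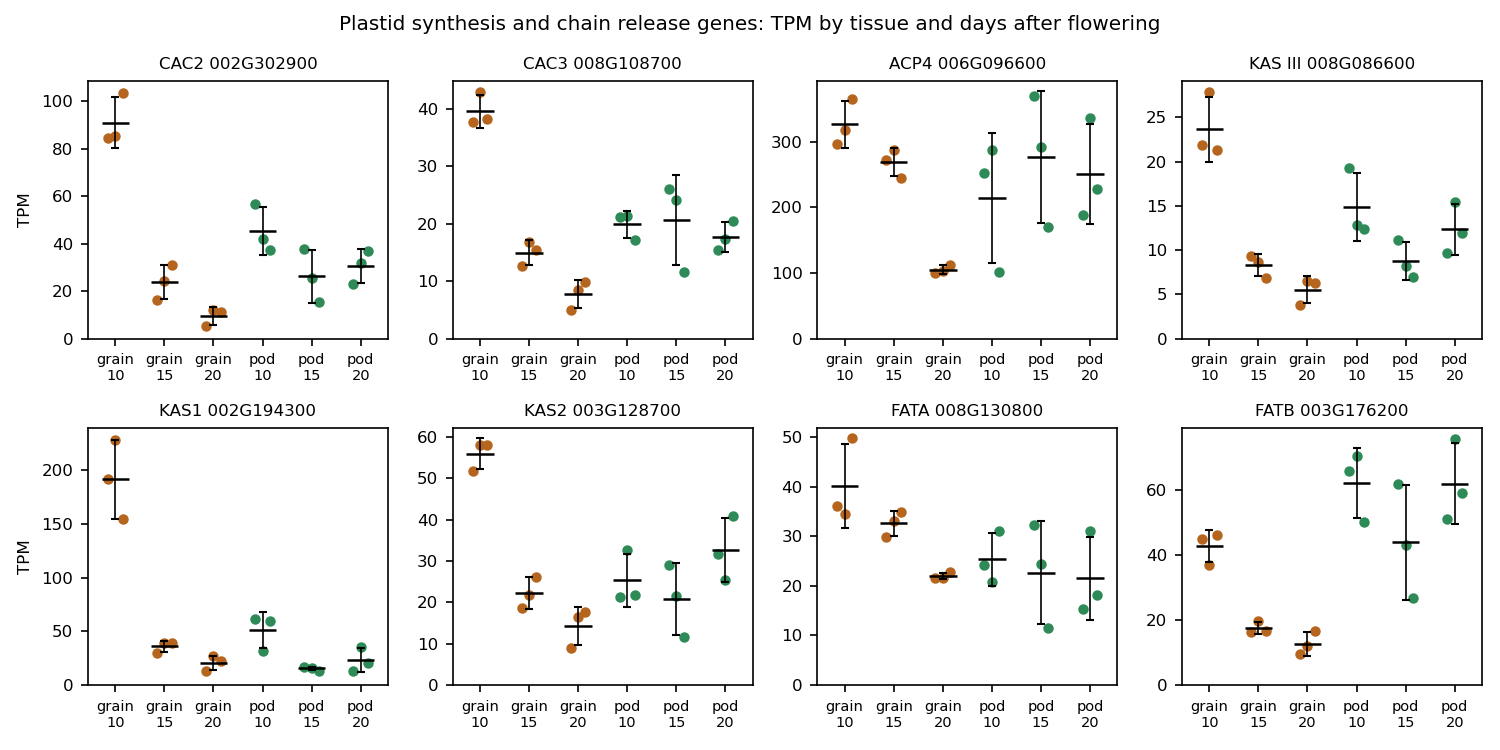
TPM (y axis, from 0) of 8 synthesis and chain release genes by tissue and days after flowering. Points are libraries, bars the mean ± SD (n = 3); CAC2 and KAS1 are highest in all 3 grain libraries at 10 DAF, and FATB is higher in pod than in late grain.

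Acyl carrier proteins hold the chain while it is built. The plastid-type ACP4 copy Phvul.006G096600 made up 90.7 to 99.0% of the summed TPM of the plastid carrier genes by group mean. It was listed at 296, 318 and 365 TPM in grain at 10 DAF, 273, 288 and 245 TPM at 15 DAF, then 99.3, 104 and 112 TPM at 20 DAF. The 3 stages did not overlap, and the 20 DAF libraries lay far below the others. The log2 difference between 20 and 10 DAF was -1.62 (SE 0.37, adjusted p = 0.00107) but -0.33 (SE 0.30, adjusted p = 0.423) after scaling, so the call did not hold there. Between 20 and 15 DAF the difference was -1.34 (SE 0.37, adjusted p = 0.0373), and this call was lost on leaving out any 1 of the grain libraries at 15 or 20 DAF (adjusted p = 0.0564 to 0.162) and after scaling, at -0.93 (SE 0.30, adjusted p = 0.0555). The smaller copies Phvul.002G282800 and Phvul.003G100400 fell under both scalings. Copy Phvul.002G282800 went from 17.4 ± 6.65 TPM at 10 DAF to 0.256 ± 0.223 TPM at 20 DAF, a log2 difference of -3.83 (SE 0.48, adjusted p = 3.38e-06). Copy Phvul.003G100400 went from 10.1 ± 6.74 to 0.561 ± 0.101 TPM, a log2 difference of -2.67 (SE 0.45, adjusted p = 7.89e-05).

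Mitochondrial acyl carrier proteins serve a separate, small synthesis system that in plants feeds lipoic acid production. MTACP1 (Phvul.008G051000) was listed at 345, 489 and 290.2 TPM in grain at 10 DAF, the highest mean of any of the 46 genes, and at 81.0, 169.9 and 122 TPM at 20 DAF. The groups did not overlap. Its log2 difference was -1.61 (SE 0.36, adjusted p = 0.000832), and -0.32 after scaling, without a call. mtACP2 (Phvul.008G052400) differed by -2.12 (SE 0.32, adjusted p = 2.63e-05), and by -0.83 after scaling, without a call. mtACP3 (Phvul.006G139500) was low, at 7.67 ± 1.41 TPM at 10 DAF, against 0.356 ± 0.145 TPM at 20 DAF, and fell under both scalings, with a difference of -2.67 (SE 0.35, adjusted p = 5.68e-06) as deposited.

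Thioesterases end chain growth: FATA prefers oleoyl-ACP and FATB saturated chains. FATA (Phvul.008G130800) went from 40.2 ± 8.49 TPM in grain at 10 DAF to 22.0 ± 0.664 TPM at 20 DAF and was not called, with a log2 difference of -0.82 (SE 0.33, adjusted p = 0.0379) and a sign that turned after scaling, to 0.44. The FATB copy Phvul.003G176200 fell from 42.7 ± 4.93 to 12.7 ± 3.64 TPM, a difference of -1.70 (SE 0.30, adjusted p = 0.000120), and differed by -0.46 after scaling, without a call. The other expressed FATB copy, Phvul.009G200200, was at 18.0 ± 2.38, 8.74 ± 2.29 and 15.0 ± 1.89 TPM and was not called, and its difference between 20 and 10 DAF turned from -0.24 to 1.00 (SE 0.37, adjusted p = 0.0428) after scaling.

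Among the 14 desaturases, 9 fell in grain from 10 to 20 DAF in deposited TPM, while after scaling 3 were lower and 3 higher. Of all tested genes 52.9% fell, and after scaling 16.8% were lower and 8.57% higher. The gene described as fatty acid/sphingolipid desaturase, Phvul.001G036200, showed the largest fall of all 38 genes. It was listed at 40.1, 57.3 and 26.8 TPM in 10 DAF grain, 4.90, 8.99 and 6.30 TPM at 15 DAF, then 0.612, 1.79 and 1.66 TPM at 20 DAF, with no overlap between the 3 stages. The log2 difference between 20 and 10 DAF was -4.15 (SE 0.41, adjusted p = 2.71e-07), and -3.23 (SE 0.42, adjusted p = 2.34e-05) after scaling. DES-1-LIKE (Phvul.006G187100), a relative of sphingolipid desaturases, fell, with a difference of -2.71 (SE 0.34, adjusted p = 3.61e-06), and -1.68 after scaling. FAD5 (Phvul.010G156200), a plastid desaturase of palmitate in Arabidopsis, was low throughout, at 2.51 ± 0.275 TPM at 10 DAF, against 0.0397 ± 0.0344 TPM at 20 DAF.

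FAD2 turns oleate into linoleate in the endoplasmic reticulum, and 3 copies were expressed. Copy Phvul.001G142100 was the most abundant, at 128, 85.6 and 148 TPM in grain at 10 DAF, against 21.0, 60.7 and 47.1 TPM at 20 DAF. The groups did not overlap, and the difference was -1.56 (SE 0.41, adjusted p = 0.00308), or -0.28 after scaling, without a call. Copy Phvul.007G023400 was listed at 11, 25.7 and 49.4 TPM in 10 DAF grain, 59.7, 55.1 and 43.9 TPM at 15 DAF, then 12.1, 31.9 and 27.4 TPM at 20 DAF. It differed by -0.13 (SE 0.41, adjusted p = 0.802) between 20 and 10 DAF as deposited and by 1.12 (SE 0.35, adjusted p = 0.0195) after scaling. It was also the 1 gene of the 38 higher at 15 than at 10 DAF, by 1.08 (SE 0.41, adjusted p = 0.0379). Without grain library 1 at 10 DAF, the lowest of its group, that difference was 0.54 (adjusted p = 0.274). The call was lost also without grain library 2 at 10 DAF or any 1 of the 3 libraries at 15 DAF (adjusted p = 0.0510 to 0.108), and held after scaling, at 1.93 (SE 0.35, adjusted p = 0.000949).

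FAD8 makes the trienoic fatty acids of plastid lipids. Its copy Phvul.008G260700 was listed at 21.4, 35.0 and 43.0 TPM in grain at 10 DAF, 53.9, 50.3 and 53.0 TPM at 15 DAF, then 41.3, 45.3 and 40.4 TPM at 20 DAF. The 15 DAF libraries were the highest and the 10 and 20 DAF libraries overlapped. The difference between 20 and 10 DAF was 0.40 (SE 0.36, adjusted p = 0.339) as deposited and 1.67 (SE 0.36, adjusted p = 0.00174) after scaling, the largest of the 3 rises there. The third of these was FAD2 copy Phvul.007G259500, at 0.31 as deposited and 1.5 (SE 0.40, adjusted p = 0.00711) after scaling. FAD8 copy Phvul.010G076200 went the other way in deposited TPM, from 29.3 ± 5.16 to 12.3 ± 5.83 TPM, a difference of -1.26 (SE 0.44, adjusted p = 0.0181). That call was lost without grain library 1 at 10 DAF (adjusted p = 0.0568) or at 20 DAF (adjusted p = 0.0988), and after scaling the difference was -0.03.

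Acyltransferases place the last acyl chain on diacylglycerol to make oil, DGAT from acyl-CoA and PDAT from a phospholipid. The PDAT1 copy Phvul.010G132900 was listed at 10.1, 9.57 and 8.29 TPM in grain at 10 DAF, 1.39, 2.24 and 1.98 TPM at 15 DAF, then 0.476, 0.195 and 0.467 TPM at 20 DAF, with each stage below the one before it. Its log2 difference between 20 and 10 DAF was -2.91 (SE 0.35, adjusted p = 2.21e-06), and -2.23 (SE 0.24, adjusted p = 2.92e-06) after scaling. PDAT1 copy Phvul.003G133000 fell, with a difference of -1.06 (SE 0.30, adjusted p = 0.00461), and differed by 0.14 after scaling. The diacylglycerol acyltransferase family genes Phvul.003G272500 and Phvul.002G119500 were not called between 20 and 10 DAF, at -0.90 and -0.71, and both turned sign after scaling.

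FAR5 (Phvul.011G180400), a reductase that makes fatty alcohols and in Arabidopsis contributes to suberin, went from 29.7, 22.3 and 21.3 TPM in grain at 10 DAF to 5.28, 8.38 and 8.43 TPM at 15 DAF, then 4.58, 8.02 and 8.04 TPM at 20 DAF. The 10 DAF libraries lay above the rest, and the difference between 20 and 10 DAF was -1.71 (SE 0.26, adjusted p = 2.90e-05), or -0.52 after scaling, without a call. FAAH cleaves N-acylethanolamines, lipid signals derived from membrane phospholipids. Its copy Phvul.009G152300 went from 18.8, 21.4 and 20.5 TPM to 4.55, 10.5 and 11.2 TPM and 1.67, 1.76 and 1.87 TPM, with no overlap between stages. It fell, with a difference of -2.94 (SE 0.33, adjusted p = 9.03e-07), and of -1.92 (SE 0.32, adjusted p = 0.000221) after scaling.

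The 2 genes of the seed coat list summed to between 185 and 602 TPM in grain at 10 DAF, between 49.6 and 191 TPM at 15 DAF, between 4.82 and 22.8 TPM at 20 DAF, and at most 1.39 TPM in the pods. The 30 genes of the green tissue list, all light-harvesting or chlorophyll-binding proteins, summed to 4828 to 5766 TPM in 10 DAF grain, 942 to 1994 TPM in 15 DAF grain and 54.3 to 284 TPM in 20 DAF grain. Both marker sums fell together with CAC2, KAS1 and the other genes that fell in grain, and their part in these results was not tested.

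As deposited, more genes fell between 10 and 15 DAF than between 15 and 20 DAF, which was also so over all tested genes. After scaling this order was not kept, and the 2 intervals were not tested against each other. Between 10 and 15 DAF 21 genes fell and 1 rose, against 34.4% and 1.91% of all tested genes, and after scaling 5 were lower and 3 higher, against 10.2% and 5.7%. The 5 lower under both scalings were CAC2, KAS1, ACP4 Phvul.003G100400, PDAT1 Phvul.010G132900 and desaturase Phvul.001G036200. Between 15 and 20 DAF 7 genes fell and 0 rose, against 5.05% and 0.896% of all tested genes. After scaling 8 were lower and 0 higher, against 4.79% and 2.73%. At an unadjusted p under 0.05, 16 were lower and 0 higher as deposited, a cut-off at which all tested genes were not counted. The 5 lower under both scalings here were desaturase Phvul.001G036200, ACP4 Phvul.002G282800, DES-1-LIKE and FAAH copies Phvul.006G199100 and Phvul.009G152300. ACP4 Phvul.002G282800 differed by -2.47 (SE 0.48, adjusted p = 0.00401) and FAAH Phvul.009G152300 by -1.73 (SE 0.33, adjusted p = 0.00334). The count of 7 went to 2 without grain library 2 at 15 DAF or library 1 at 20 DAF, and to 3 without library 3 at 15 DAF. CAC2, at -1.28 (SE 0.35, adjusted p = 0.0384), was lost without each of these, and without grain library 1 at 10 DAF or pod library 2 at 15 DAF (adjusted p = 0.0504 to 0.275).

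At 10 DAF, grain and pod differed in 15 of the 38 genes: 10 were higher in grain and 5 higher in pod, against 17.8% and 16.8% of all tested genes. After scaling the numbers were 8 and 5, against 16.6% and 17.1%, and all 13 were among the 15. KAS1 Phvul.002G194300, at 61.9, 31.5 and 59.7 TPM in pod, lay in every pod library below every grain library and was higher in grain by 1.93 (SE 0.35, adjusted p = 0.000241). KAS2, at 25.3 ± 6.46 TPM in pod, was higher in grain by 1.14 (SE 0.33, adjusted p = 0.00983). CAC2, at 45.4 ± 10.2 TPM in pod, was higher in grain by 1.00 (SE 0.35, adjusted p = 0.0302), a call that was lost without any 1 of grain libraries 1, 2 and 3 or pod columns c2 and c3 (adjusted p = 0.0563 to 0.101) and after scaling. FAAH copy Phvul.009G152300 was higher in grain by 2.47 (SE 0.33, adjusted p = 6.24e-06). The count of 5 genes higher in pod was 3 without pod column c1.

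FAD2 copy Phvul.007G023400 and FAR5 were detected almost only in grain. FAD2 Phvul.007G023400 was listed at 0.104, 0 and 0.153 TPM in pod at 10 DAF, 0.273, 0.119 and 0 TPM at 15 DAF and at 0 in all 3 pod libraries at 20 DAF. Its lowest grain value, in library 1 at 10 DAF, was 11 TPM. The difference at 10 DAF was 4.54 (SE 0.41, adjusted p = 5.10e-08), and that at 20 DAF passed the test as well (adjusted p = 4.96e-08). FAR5 was listed at 0.130, 0.125 and 0.286 TPM in pod at 10 DAF and at 0 in all 3 pod libraries at 20 DAF. It was higher in grain at 10 DAF by 4.42 (SE 0.26, adjusted p = 2.59e-10), and passed at 20 DAF as well (adjusted p = 4.44e-08). The seed coat marker sum was also near 0 in the pods and at its highest in grain at 10 DAF, and its part in the FAR5 result was not tested.

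PDAT1 Phvul.010G132900 and FAAH Phvul.002G275700 were higher in pod than in grain at 10 DAF. PDAT1 Phvul.010G132900 was listed at 28.4, 47.9 and 23.5 TPM in pod, every value above the grain values, a difference of -1.67 (SE 0.35, adjusted p = 0.000754). FAAH Phvul.002G275700 was listed at 37.7, 15.5 and 13.8 TPM in pod and 1.80, 0.315 and 0.913 TPM in grain, a difference of -3.47 (SE 0.39, adjusted p = 8.07e-07). The other 3 genes higher in pod at 10 DAF were FATB Phvul.009G200200, ACP3 (Phvul.006G160800) and FAD4 (Phvul.006G040800), a plastid desaturase of phosphatidylglycerol in Arabidopsis.

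At 20 DAF, 21 genes were lower and 5 higher in grain than in pod in deposited TPM, where 56.7% of all tested genes were lower and 6.25% higher. After scaling 6 were lower and 12 higher, against 20.2% and 14.4%. The 6 lower under both scalings were PDAT1 Phvul.010G132900, mtACP3, FAD4, FAD6 (Phvul.003G156600) and FAD8 copies Phvul.010G076200 and Phvul.008G098100. The 5 higher under both were FAD2 copies Phvul.007G023400 and Phvul.007G259500, FAD8 Phvul.008G260700, FAR5 and the second KAS I gene Phvul.002G300400. The count of 21 was 14 without grain library 1 and the count of 5 was 3 without grain library 3. The green tissue markers summed to 54.3 to 284 TPM in grain and 2993 to 10044 TPM in pod at 20 DAF, and their part in the higher pod levels of these plastid desaturases was not tested.

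PDAT1 Phvul.010G132900 was listed at 44.3, 26.9 and 33.5 TPM in pod at 20 DAF, against at most 0.476 TPM in grain, a log2 difference of -4.68 (SE 0.35, adjusted p = 4.37e-09), and -3.85 (SE 0.24, adjusted p = 2.74e-09) after scaling. FAD8 Phvul.010G076200 was listed at 80.3, 83.8 and 79.1 TPM in pod and 7.29, 10.9 and 18.7 TPM in grain, without overlap. The difference was -2.72 (SE 0.44, adjusted p = 3.84e-05), and -1.35 (SE 0.35, adjusted p = 0.00423) after scaling. FAD6, the plastid counterpart of FAD2, was at 14.9 ± 3.37 TPM in pod and 2.00 ± 1.05 TPM in grain, a difference of -2.46 (SE 0.38, adjusted p = 2.06e-05). FATB Phvul.003G176200 was lower in grain as deposited, at -2.22 (SE 0.30, adjusted p = 6.34e-06), and differed by -0.85 after scaling.

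FAD8 Phvul.008G260700 was the most abundant of the 5 members higher in grain at 20 DAF under both scalings. After scaling alone MTACP1, at 124 ± 44.5 TPM in grain, was higher in grain too, at 1.30 (SE 0.26, adjusted p = 0.000575). In pod at 20 DAF FAD8 Phvul.008G260700 was listed at 2.31, 4.04 and 9.94 TPM, each value below every grain value, and the difference was 2.93 (SE 0.36, adjusted p = 1.77e-06), or 4.24 (SE 0.36, adjusted p = 1.27e-07) after scaling. FAD2 Phvul.007G259500 was listed at 5.76, 4.19 and 2.16 TPM in pod and 6.46, 11.4 and 17.6 TPM in grain. The groups did not overlap, and the difference was 1.32 (SE 0.47, adjusted p = 0.0169), with the call lost without grain library 3 (adjusted p = 0.0858) or pod library 3 (adjusted p = 0.0855). KAS1 Phvul.002G194300, higher in grain at 10 DAF, was at 23.0 ± 11.3 TPM in pod and 20.7 ± 6.76 TPM in grain at 20 DAF, a difference of -0.09 (SE 0.35, adjusted p = 0.829) that turned to 1.28 (SE 0.35, adjusted p = 0.00707) after scaling.

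**Figure D3:**
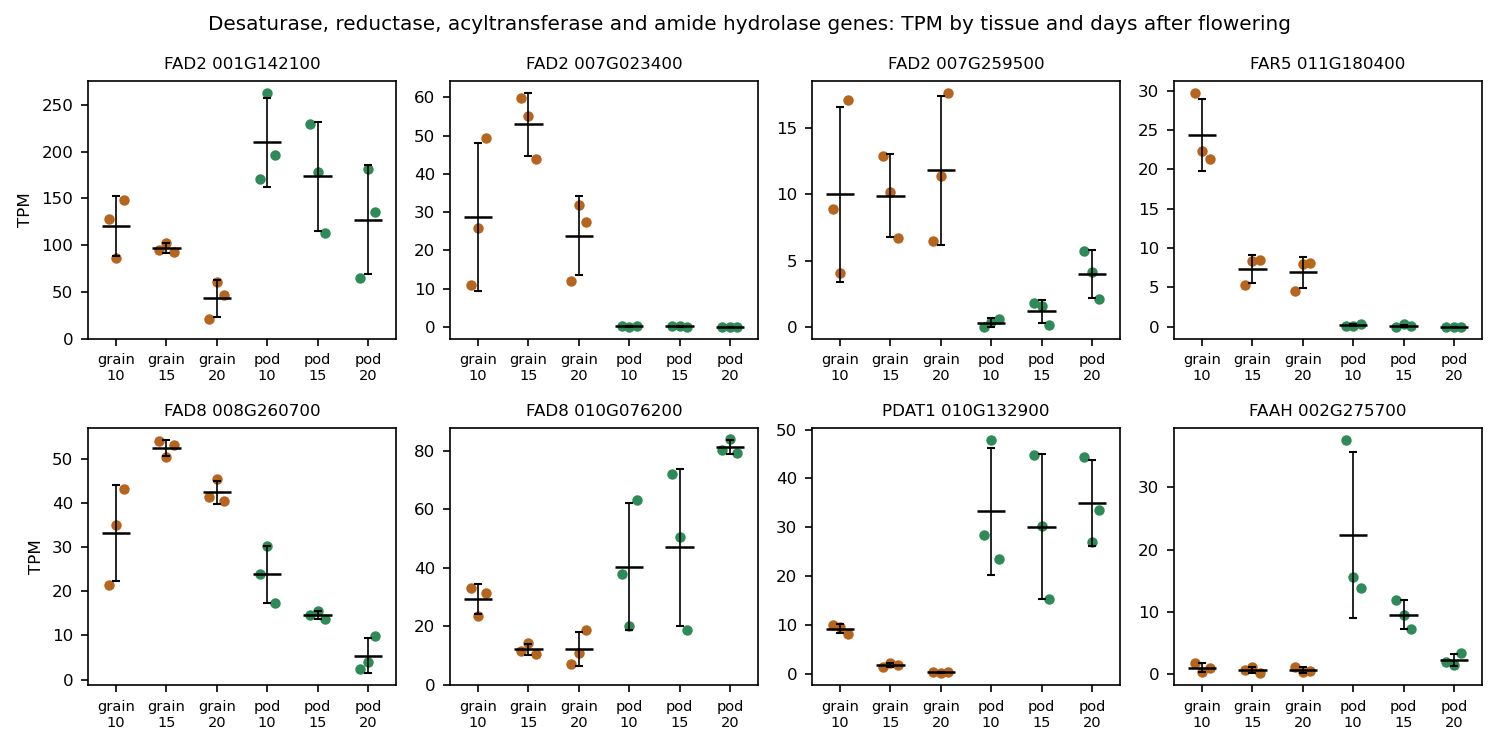
TPM (y axes) of 8 desaturase, reductase, acyltransferase and amide hydrolase genes by tissue and days after flowering. Points are libraries and bars the mean ± SD (n = 3). FAD2 Phvul.007G023400 and FAR5 lie near 0 in pod, and PDAT1 Phvul.010G132900 lies higher in the pod than in the grain libraries at each stage. In pod FAD8 Phvul.008G260700 falls, while the rise in the mean of FAD8 Phvul.010G076200 was not called.

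In pod from 10 to 20 DAF 7 genes fell and 1 rose, against 6.72% and 5.38% of all tested genes, and after scaling 8 fell and 1 rose, against 8.07% and 4.63%. The count of 7 was 4 without pod column c1 and 3 in a fit of the pod groups compared alone. The count of 1 was 0 without c1 or pod library 1 at 20 DAF, 2 without pod library 1 at 15 DAF or 3 at 20 DAF, and 3 without c3 or pod library 3 at 15 DAF. Desaturase Phvul.001G036200 went from 58.2, 19.2 and 38.6 TPM to 0.975, 2.86 and 4.11 TPM, without overlap, a difference of -3.42 (SE 0.41, adjusted p = 2.40e-05). FAAH Phvul.002G275700 went from 37.7, 15.5 and 13.8 TPM to 1.99, 1.53 and 3.32 TPM, a difference of -2.73 (SE 0.39, adjusted p = 0.000109). FAD8 Phvul.008G260700 went from 23.9, 30.3 and 17.4 TPM to 2.31, 4.04 and 9.94 TPM, a difference of -2.10 (SE 0.36, adjusted p = 0.000585). In each of these 3 genes every 10 DAF library lay above every 20 DAF library, which was a condition for naming them here.

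FATB Phvul.009G200200 was listed at 99.6, 29.5 and 37.4 TPM in pod at 10 DAF and 15.4, 14.4 and 14.1 TPM at 20 DAF. Column c1 stood far above the other 2 columns of its group. The difference was -1.65 (SE 0.37, adjusted p = 0.00543), and -1.13 without column c1 (adjusted p = 0.0441). The call was lost with only the groups compared (adjusted p = 0.0655). KAS1, ACP4 Phvul.003G100400 and FAAH Phvul.009G152300 also fell, with differences of -1.16 (SE 0.35, adjusted p = 0.0360), -1.87 (SE 0.45, adjusted p = 0.00927) and -1.26 (SE 0.33, adjusted p = 0.0133). Without column c1 all 3 lost their call (adjusted p = 0.164, 0.0702 and 0.106), and KAS1 and ACP4 Phvul.003G100400 lost it also without pod library 1 at 20 DAF (adjusted p = 0.202 and 0.0617). KAS1 lost it too without column c3 or pod library 3 at 20 DAF (adjusted p = 0.129 and 0.0803). The rise was that of FAD2 Phvul.007G259500, by 1.85 (SE 0.47, adjusted p = 0.0115), and was lost without column c1 or pod library 1 at 20 DAF (adjusted p = 0.0619 and 0.0588). Green tissue markers in the pods summed to 13681 to 35141 TPM at 10 DAF and 2993 to 10044 TPM at 20 DAF, and their part in the pod results was not tested.

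The change from 10 to 20 DAF differed between grain and pod in 24 genes, by an interaction term of the fit: 21 had the more negative and 3 the more positive change in grain, against 52.8% and 3.69% of all tested genes. After scaling 6 were more negative and 3 more positive, against 12.8% and 9.17%, and all 9 were among the 24. The 6 were CAC2, ACP4 Phvul.002G282800, mtACP3, PDAT1 Phvul.010G132900, FAAH Phvul.006G199100 and FAD5. For PDAT1 Phvul.010G132900 the grain change was -2.91 and the pod change 0.10, a difference of -3.01 (SE 0.49, adjusted p = 0.000184), and -2.17 (SE 0.33, adjusted p = 0.000269) after scaling. For CAC2 the changes were -3.20 and -0.56, a difference of -2.63 (SE 0.50, adjusted p = 0.000596), and -1.25 (SE 0.34, adjusted p = 0.0149) after scaling. The 3 more positive in grain were FAD8 Phvul.008G260700, FAAH Phvul.002G275700 and FATB Phvul.009G200200, and in each the pod level fell. FAD8 Phvul.008G260700 differed by 2.50 (SE 0.50, adjusted p = 0.000892), and 3.85 (SE 0.51, adjusted p = 8.33e-05) after scaling.

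Shares of a copy within its family do not depend on the scaling between libraries. They are given with SD over 3 libraries and were not tested. Reads that match several near-identical copies could be split between them by the authors' counting, which was not checked here. In the FAD2 family Phvul.001G142100 held 76.6% ± 8.96 of the family's TPM in grain at 10 DAF, 60.9% ± 4.00 at 15 DAF and 54.2% ± 3.76 at 20 DAF. In pod it held 99.8% ± 0.175, 99.3% ± 0.447 and 96.0% ± 3.60. The pod transcript pool was thus nearly all 1 copy, and in grain Phvul.007G023400 held 17.6% ± 8.77, 33.0% ± 2.50 and 30.3% ± 0.481.

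At 15 and 20 DAF the FAD8 family had a different leading copy in grain and in pod, while at 10 DAF the shares overlapped. Copy Phvul.008G260700 held 43.8% ± 10.6, 70.5% ± 2.17 and 71.7% ± 9.14 in grain at 10, 15 and 20 DAF, and 29.7% ± 12.4, 21.9% ± 10.8 and 4.82% ± 3.65 in pod. Copy Phvul.010G076200 held 39.5% ± 8.2, 16.3% ± 2.75 and 20.1% ± 7.49 in grain and 45.6% ± 16.9, 56.7% ± 9.55 and 71.3% ± 0.519 in pod. At 15 and 20 DAF the grain and pod libraries did not overlap in either share. Of the 2 PDAT1 copies, Phvul.010G132900 held 36.0% ± 5.51, 20.0% ± 2.22 and 5.23% ± 3.04 in grain and 67.6% ± 8.90, 70.8% ± 4.43 and 68.5% ± 3.39 in pod. FATB Phvul.009G200200 held 54.0% ± 9.85 in grain and 19.4% ± 3.54 in pod at 20 DAF, the remainder being almost all Phvul.003G176200.

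**Figure D4:**
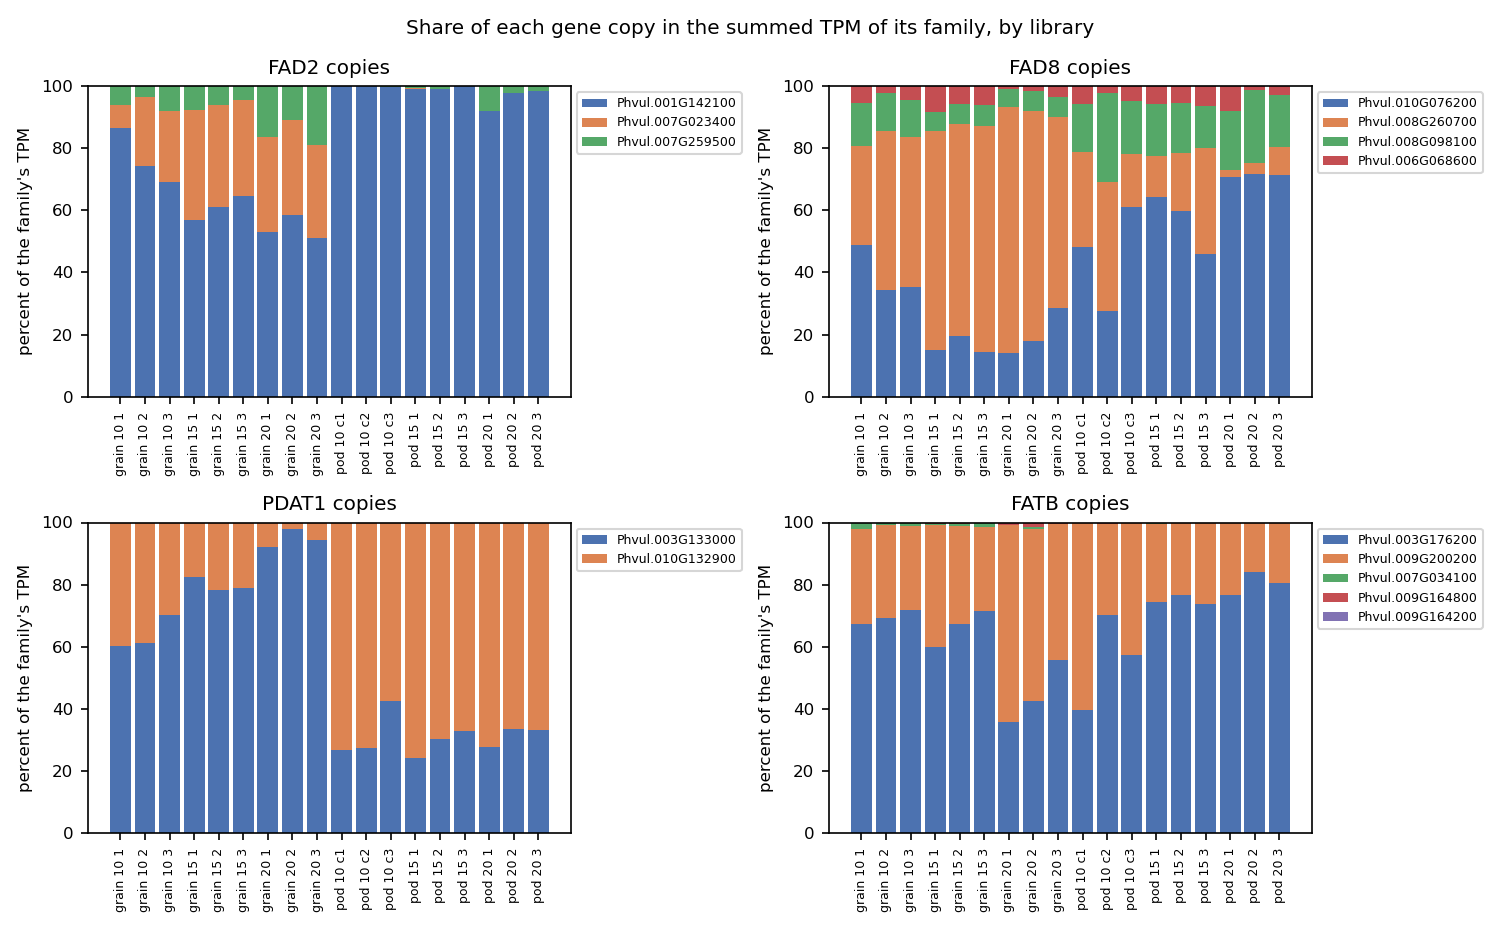
Share of each gene copy in the summed TPM of its family (y axis, percent) in each library (x axis) for FAD2, FAD8, PDAT1 and FATB; bars stack to 100%. FAD2 is nearly all Phvul.001G142100 in pod, FAD8 is mostly Phvul.008G260700 in later grain and mostly Phvul.010G076200 in later pod, and PDAT1 Phvul.010G132900 leads in every pod library.

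Genes of the same pathway whose descriptions the rule does not match were counted from lists of search patterns. In grain from 10 to 20 DAF these counts stand beside 52.9% lower and 2.67% higher of all tested genes, and 16.8% lower and 8.57% higher after scaling. Of 6 tested genes for other carboxylase and desaturase steps, among them the cytosolic type of carboxylase, ACC1 (Phvul.009G028700), 4 fell in grain from 10 to 20 DAF and 0 rose, and after scaling 2 were lower and 0 higher. Of the 6, the stearoyl-ACP desaturase family gene Phvul.001G064100, of the family that makes oleate from stearate, was the most abundant: 394, 623 and 764 TPM in grain at 10 DAF and 10.7, 1.94 and 3.65 TPM in pod. In grain it was at 547, 722 and 762 TPM at 15 DAF, then 286, 632 and 348 TPM at 20 DAF, and the 10 and 20 DAF libraries overlapped. Every grain library stood above every pod library, and the difference was 6.72 (SE 0.57, adjusted p = 2.48e-08) at 10 DAF and 6.79 (SE 0.57, adjusted p = 2.06e-08) at 20 DAF, or 6.59 and 8.02 after scaling. FAB2 (Phvul.003G297200), another gene of that family, was at 106 ± 14.0 TPM in grain and 85 ± 7.79 TPM in pod at 10 DAF.

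Of 23 tested genes matched for carbon supply (pyruvate kinase, pyruvate dehydrogenase and the like), 18 fell in grain and 0 rose, and after scaling 10 were lower and 0 higher. Of all tested genes 52.9% fell and 2.67% rose, and after scaling 16.8% were lower and 8.57% higher. The patterns also matched mitochondrial lipoamide dehydrogenase, dihydrolipoamide succinyltransferase, pyruvate dehydrogenase kinase and pyruvate kinases of no stated location. The count is thus not one of plastid carbon supply alone. PKP1 (Phvul.007G047600), a plastid pyruvate kinase subunit, went from 124, 160.3 and 149 TPM in grain at 10 DAF to 3.06, 10.1 and 12.0 TPM at 20 DAF, without overlap, a difference of -4.11 (SE 0.45, adjusted p = 8.74e-07), and -2.92 (SE 0.37, adjusted p = 1.76e-05) after scaling. Of 21 tested genes matched for oil assembly, 5 rose and 7 fell, and after scaling 6 were higher and 2 lower. The patterns matched oleosins, caleosins, and lysophosphatidyl and glycerol-3-phosphate acyltransferases of any type. The acyltransferases were not sorted by the lipid they make, so the count is not one of oil genes alone. Oleosin 1 (Phvul.007G138300), a coat protein of oil bodies, went from 352 ± 149 to 1602 ± 292 and 3890.1 ± 553 TPM in grain, a log2 difference between 20 and 10 DAF of 3.57 (SE 0.47, adjusted p = 6.60e-06), and 4.87 after scaling. Its pod means stayed at or below 1.54 TPM.

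Of 18 tested genes for very-long-chain elongation, which feeds cuticle wax and suberin, 10 fell in grain and 0 rose, and after scaling 3 were lower and 1 higher. The lower counts are near the shares of all tested genes, 52.9% as deposited and 16.8% after scaling. KCS6 (Phvul.007G027100), the wax elongase of Arabidopsis, was at 228 ± 78.7 TPM in pod and 9.15 ± 0.262 TPM in grain at 10 DAF. At 20 DAF it was lower in grain, with a difference of -5.09 (SE 0.48, adjusted p = 9.17e-08), and -4.10 (SE 0.50, adjusted p = 6.43e-06) after scaling. No count is given for beta-oxidation and the glyoxylate cycle, the breakdown route, because 8 of the 25 genes its patterns matched are isopropylmalate or methylthioalkylmalate synthases, enzymes of other pathways. KAT2 (Phvul.007G236600), a peroxisomal thiolase, went from 68.8 ± 29.2 TPM in pod at 10 DAF to 173 ± 31.3 TPM at 20 DAF, a log2 difference of 1.38 (SE 0.38, adjusted p = 0.0207). Malate synthase Phvul.003G209200, the most abundant gene matched, showed no such rise, at 400 ± 126.5 TPM in pod at 10 DAF and 374 ± 111 TPM at 20 DAF.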

How the data were processed

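The authors deposited TPM for 27420 genes in 18 libraries, with a description of each gene. Per the labels' protocols, RNA was taken with TRIzol and libraries were made with a SMARTER mRNA kit. Aligner, counting tool, genome build and treatment of shared reads were not given in the sources used here. The design text speaks of 4 periods where the labels give 3 stages, which were used. Pod titles at 10 DAF and their columns carry different numbers, so c1, c2 and c3 stand for these columns.

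Values were tested as log2(TPM + 1) where 3 or more libraries reached 1 TPM, which left 19861 genes. The test was limma 3.58.1 (R 4.3.3), with 6 group means, moderated variances and an intensity trend. Benjamini-Hochberg adjustment ran over all tested genes. Median-ratio scaling used the 11276 genes above 1 TPM in every library. The scripts were tested on simulated data. Within groups the libraries correlated at r = 0.905 to 0.981, and 0 pairs were identical.

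The members, lists and tests were chosen with earlier results of these data known. Named genes are the 3 most abundant of each role and the largest called differences with at least 10 TPM and no overlap. For genes named by the second rule, the lack of overlap was a condition of selection and adds no support. Members with a called tissue difference are named too, as are some of the 3 most abundant genes of each pathway list. Others, such as FAR5 and FAAH at 10 DAF, were chosen after their values were seen. The reference gene table matched 0 identifiers, so no sequences or coordinates are given. Other settings tried were a pseudocount of 0.1, no filter, a filter at 5 TPM, the 50 most abundant genes left out, no trend, only the groups compared, leaving out each library, and a block for replicate number.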

Additional observations from a re-analysis of the deposited data

Results flagged for a closer look

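The change from 10 to 20 DAF was tested between grain and pod by the difference itself. Of the 38 tested genes, 21 (55.3%) were more negative in grain, near the 52.8% of all tested genes. The 3 more positive in grain stand beside 3.69% of all tested genes. The 7 genes given here are the largest of these each way, as the grain change minus the pod change on the log2(TPM + 1) scale. CAC2 (Phvul.002G302900) had -2.63 (SE 0.50, adjusted p = 0.000596), and -1.25 after median-ratio scaling. ACP4 Phvul.002G282800 had -2.49 (SE 0.67, adjusted p = 0.00579), and -1.93 after scaling. PDAT1 Phvul.010G132900 had -3.01 (SE 0.49, adjusted p = 0.000184), and -2.17 after scaling. FAD8 Phvul.010G076200 had -2.39 (SE 0.62, adjusted p = 0.00462), and -0.99 (SE 0.49, adjusted p = 0.154) after scaling, where it was no longer called.

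FAD8 Phvul.008G260700 had 2.50 (SE 0.50, adjusted p = 0.000892), and 3.85 after scaling. FAAH Phvul.002G275700 had 2.50 (SE 0.55, adjusted p = 0.00150), and 3.14 after scaling. FATB Phvul.009G200200 had 1.41 (SE 0.53, adjusted p = 0.0301), and 2.79 after scaling. The FATB call was lost without pod column c1 at 10 DAF (0.89, adjusted p = 0.0978), and without grain library 2 or 3 at 10 DAF, grain library 1 at 20 DAF or pod library 3 at 20 DAF (adjusted p = 0.0525 to 0.0632).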

How the results depend on the processing

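The member counts moved as follows, higher and lower, first under median-ratio scaling and then on removal of the 50 most abundant genes. For grain 15 against 10 DAF they were 3 and 5, and 3 and 4; for 20 against 10 DAF 3 and 11, and 2 and 11. For grain against pod at 20 DAF they were 12 and 6, and 9 and 9, and the lower count of the tissue difference was 6 and 8. Without the 50 genes, the lower count in grain 20 against 15 DAF was 11, the higher count in pod 3 and that of grain against pod at 10 DAF 6. Of all 19661 genes tested there, 1251 were higher and 1662 lower in grain 15 against 10 DAF. In 20 against 10 DAF 1344 and 3694 were, and in grain against pod at 20 DAF 2076 and 5308. In the tissue difference 3340 were lower, and in grain 20 against 15 DAF 1387. In pod 1130 were higher, and in grain against pod at 10 DAF 2938. With a pseudocount of 0.1, or only the groups compared, the 20 against 15 DAF count was 11, beside 1421 of 19861 and 1465 of 15475 tested genes. The higher count of grain 15 against 10 DAF was 0 with that pseudocount, with no filter or with only the groups compared, and the lower count in pod was 3 in the last. Over all tested genes these were 413 of 19861, 359 of 24782 and 407 of 17297 higher, and 662 of 17622 lower in pod.

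Leaving out each library in turn gave, higher and lower, 0 to 1 and 17 to 21 (grain 15 against 10 DAF), 0 to 0 and 2 to 10 (20 against 15), 0 to 0 and 23 to 26 (20 against 10), 0 to 3 and 4 to 10 (pod), 7 to 12 and 3 to 6 (tissues at 10 DAF), 3 to 6 and 14 to 21 (tissues at 20 DAF), and 2 to 3 and 18 to 24 (tissue difference). Counts over all tested genes also moved with the library left out. Without grain library 2 at 15 DAF, 339 of 19847 tested genes were lower in grain 20 against 15 DAF, beside 1002 of 19861 in the main fit. Deviations of same-numbered libraries correlated at r = -0.11 to 0.20, so the numbers were not taken to pair samples. With a replicate block, which could not be fitted for comparisons with pod at 10 DAF, the counts in grain and between tissues at 20 DAF were unchanged but for 6 lower in place of 7 in grain 20 against 15 DAF, where CAC2 was lost. The 222 family share values recomputed without a library each moved by less than 1 SD. With 3 libraries a group this holds for any values, so it does not show how stable the shares are.

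Signs turned in 31 cases. In grain 20 against 10 DAF, after scaling and without the 50 genes, the difference was 0.34 and 0.20 for Phvul.002G119500, 0.41 and 0.28 for Phvul.002G275700, 0.35 and 0.18 for Phvul.003G272500, 1.12 and 0.96 for Phvul.007G023400, 0.44 and 0.28 for Phvul.008G130800, and 1.00 and 0.84 for Phvul.009G200200. Over the fits that left out 1 library it ran from -0.49 to 0.050 for Phvul.002G275700, from -0.67 to 0.36 for Phvul.007G023400 and from -0.16 to 0.76 for Phvul.007G259500. In grain against pod at 20 DAF it was 1.28 and 0.88 for Phvul.002G194300 and 1.30 and 0.89 for Phvul.008G051000. After scaling it was 0.20 for Phvul.003G128700, 0.22 for Phvul.006G096600, 0.25 for Phvul.008G052400, 0.23 for Phvul.008G086600 and 0.19 for Phvul.008G108700. With 1 library left out it ran from -0.43 to 0.26 for Phvul.002G194300, from -0.38 to 0.15 for Phvul.008G051000, from -0.11 to 0.38 for Phvul.008G130800 and from -0.046 to 0.12 for Phvul.009G200200. The cause was not tested. Of 2237 recomputed differences of named genes, 2089 kept their direction and side of the threshold. That total includes fits that left out a library of a group not compared. Under median-ratio scaling alone 47 of 87 differences kept both, while 22 lost their call, 5 gained one and 13 turned sign. Without the 50 most abundant genes 51 kept both, 24 lost their call, 4 gained one and 8 turned sign. Depth is unknown, so what it limits could not be computed.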

Other observations

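The 3 grain libraries at 10 DAF differed among themselves in genes that were high in later grain. Library 1 was the lowest of its group in FAD2 Phvul.007G023400 (11, 25.7 and 49.4 TPM in libraries 1, 2 and 3), in FAD8 Phvul.008G260700 (21.4, 35.0 and 43.0 TPM) and in oleosin 1, Phvul.007G138300 (179, 432 and 444 TPM). The summed grain storage list was 458, 1925 and 3152 TPM in the same libraries, and the summed seed coat list 602, 185 and 203 TPM. Library 1 was thus the lowest in the storage sum and the highest in the seed coat sum.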
